A study of Mus musculus with 3 samples.

Results

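Dendritic cells of the mouse diaphragm were studied here as 169 of the 12275 barcodes of 3 single-cell RNA libraries. The members were chosen by measured values, as barcodes with at least 2 UMIs in the sum of Flt3, Xcr1 and Cd209a, at least 10 UMIs of H2-Ab1, and none of Cd79a, Pdgfra or Cd3e. A UMI (unique molecular identifier) marks 1 captured mRNA molecule. The WT CD and WT HFD libraries came from male C57BL/6J mice fed a control diet (CD) or a high-fat diet (HFD, 45% of calories from lipid) for 6 months, begun at 2 months of age. The KO HFD library came from mice on the same HFD that lacked thrombospondin-1 in the whole body (B6.129S2-Thbs1tm1Hyn/J). All 3 libraries were mononuclear isolates of the costal diaphragm, released with collagenase II and cleared of dead cells by DAPI staining and flow cytometry. Each group was 1 library made from pooled mice whose cells cannot be assigned to a mouse. No difference between groups therefore has a replicate check, and every interval given covers counting error only.

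Dendritic cells take up antigen in tissues and present it to T cells on MHC molecules. Type 1 conventional dendritic cells (cDC1), which carry the chemokine receptor XCR1 and depend on the transcription factors IRF8 and BATF3, are known for presenting captured antigen on MHC class I. Type 2 cells (cDC2), which in mouse tissues often carry the lectins CD209a and MGL2 and the integrin CD11b (Itgam), are known for presenting on MHC class II. Both need the growth factor receptor FLT3, and either can switch on Ccr7 and migrate to lymph nodes. Skeletal muscle holds few of them beside macrophages and fibro-adipogenic progenitors (FAPs).

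The rule took 67 of 4132 barcodes in WT CD (1.62%, exact Clopper-Pearson 95% interval 1.26 to 2.05), 38 of 3774 in WT HFD (1.01%, 0.713 to 1.38) and 64 of 4369 in KO HFD (1.46%, 1.13 to 1.87). The libraries held 34312860, 31967976 and 36478779 UMIs, of which the members held 919733, 447184 and 1013757. Median depth per member was 12359, 10900 and 13603 UMIs, above the library medians of 7632.5, 8041.5 and 7554. Scrublet called 1 member of WT CD a doublet and none in the other libraries. The WT CD and WT HFD libraries shared 7 barcode sequences, WT HFD and KO HFD shared 2, and WT CD and KO HFD shared 7, none of them a member.

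Of the 3 genes that admitted a cell, Cd209a was found in 115 members, Flt3 in 68 and Xcr1 in 47, and only 3 members held both Xcr1 and Cd209a. H2-Ab1 ranged from 12 to 358 UMIs with a median of 120, so most members lay far above that threshold. At the other threshold the separation was weaker: 30 members had a marker sum of exactly 2, and 74 barcodes that met every other condition had a sum of 1. Itgax (CD11c) stood at 54.0 CPM (UMIs of a gene scaled to a library sum of 1000000) just inside and 53.7 just outside, and Zbtb46, a transcription factor of conventional dendritic cells, at 4.50 and 4.05. A further 35 barcodes met the marker and H2-Ab1 conditions but held a UMI of Cd79a (15), Pdgfra (18) or Cd3e (3).

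The label was checked against markers that the rule did not use. Itgax was found in 54.4% of members, 11.9% of macrophages (884 other barcodes with 10 or more UMIs of C1qa, C1qb and C1qc) and 0.370% of FAPs (5138 other barcodes with 2 or more Pdgfra UMIs), at median depths of 12416, 9158 and 8964 UMIs. After random thinning to 3000 UMIs a cell, these became 13.7, 3.83 and 0.0783%. Zbtb46 was sparse and separated them less, with a UMI in 10.1% of members and 3.81% of FAPs (2.38 and 1.35% after thinning). The 7 conventional dendritic cell markers, which include the Flt3 of the rule, were all detected in each library and summed to 390, 356 and 311 CPM in WT CD, WT HFD and KO HFD. Their most abundant gene, the MHC class II chaperone subunit H2-DMb2, stood at 150, 110 and 79.9 CPM. It did not set the members apart from B cells (697 other barcodes with 3 or more Cd79a UMIs), which held 236 CPM of it and 288 CPM of the whole list.

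The members were also set against all other barcodes, as a description of cells chosen on some of the same counts. The 15 genes with the largest ratio among those of at least 100 CPM were Cd209a, Klrd1, Ccl17, Plbd1, Pkib, Wdfy4, Il1b, Bcl2a1d, Itgb7, Cxcl9, Slamf7, Rnase6, H2-DMb1, Ube2c and Ltb4r1. Wdfy4, which cDC1 need to present cell-borne antigen on MHC class I, stood at 135 CPM in members and 9.01 in other barcodes. Ccl17, a chemokine that draws CCR4-bearing T cells, stood at 113 and 4.51 CPM, and Klrd1 (CD94) at 126 and 2.93 CPM. H2-DMb1, which loads peptide onto MHC class II, stood at 849 and 76.3 CPM.

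Marker genes divided the members into cells with a cDC1 profile and cells with a cDC2 profile. A cell was called cDC1-like or cDC2-like by the larger of its UMIs of Xcr1, Clec9a, Tlr3, Cadm1, Itgae and Gcsam and of Cd209a, Cd209d, Sirpa, Mgl2 and Clec10a, with at least 3. Cells with 10 or more C1q UMIs, 5 or more of the migratory markers, 10 or more of the plasmacytoid markers including Siglech, or 100 or more Ighm were set apart first. These thresholds were set after the UMIs had been seen. The 42 cDC1-like cells (24.9% of members) and 90 cDC2-like cells (53.3%) were sorted by these sums, which include the Xcr1 and Cd209a of the rule, so their separation on them is part of the definition. Of the cDC1-like cells 37 held no UMI of the cDC2 genes, and of the cDC2-like cells 80 held none of the cDC1 genes. Over the cDC1-like, cDC2-like and unresolved cells, 10 had sums within 3 UMIs of each other. The rest were 25 C1q-positive cells, 5 migratory-like, 2 pDC-like, 1 immunoglobulin-rich and 4 unresolved.

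**Figure D1:**
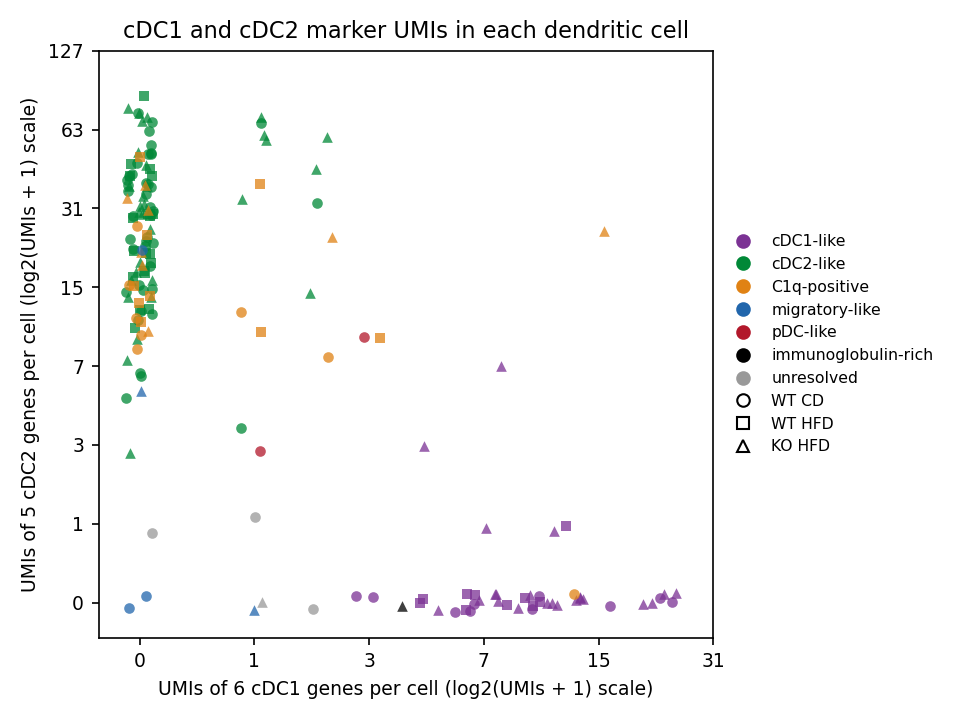
Each point is 1 of the 169 dendritic cells, placed by its UMIs of 6 cDC1 genes (x axis) and 5 cDC2 genes (y axis), both as log2(UMIs + 1) with small random offsets, with colour for profile and shape for library. The cDC1-like cells lie along the bottom and the cDC2-like cells along the left edge in all 3 libraries, and C1q-positive cells lie mostly among the latter.

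Transcription separated the cDC1 and cDC2 profiles far beyond the genes that defined them. Among 1353 genes of at least 100 CPM in either profile, leaving out those used to set the profiles, 103 (7.61%) were at least 2-fold higher in cDC1-like cells with all 3 libraries above the 3 of the cDC2-like cells, and 108 (7.98%) were so in the other direction. The cells were sorted on their own counts, so these shares describe the profiles and test nothing. Irf8 (chr8:120736358-120756694, GRCm38) stood at 787, 782 and 696 CPM in the cDC1-like cells of WT CD, WT HFD and KO HFD, and at 16.4, 8.73 and 5.12 CPM in the cDC2-like cells. It was found in all 42 cDC1-like cells and in 10 of the 90 cDC2-like cells. Batf3 was less divided, at 159, 219 and 200 CPM against 140, 91.6 and 141 CPM.

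The other leading genes of the cDC1-like cells, ranked after their values were seen, included Ifi205, an interferon-inducible DNA sensor family gene, at 505, 610 and 479 CPM against 18.2, 4.36 and 2.56 CPM. Barx2, a homeobox gene, stood at 159, 211 and 114 CPM against 5.46, 0 and 0 CPM. Havcr2, which encodes the checkpoint receptor TIM-3, stood at 144, 148 and 78.5 CPM against 3.64, 8.73 and 5.12 CPM. The order in every library was a condition for the list. The same group held the lysosomal thioesterase Ppt1 (462 against 36.8 CPM over all libraries), the endosomal GTPase Rab7b (241 against 28.2 CPM), Gpr141b, Tbc1d4, Tbc1d8, Sept3, Lrrk2, Basp1, Rtl8a, Ifi211 and Dusp2.

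In cDC2-like cells Itgam, which encodes CD11b, stood at 193, 175 and 171 CPM, against 0, 0 and 5.41 CPM in cDC1-like cells. Tmem176b stood at 659, 545 and 875 CPM against 0, 0 and 27.1 CPM, and its neighbour Tmem176a behaved likewise (764 against 15.7 CPM over all libraries). Areg, the epidermal growth factor family ligand amphiregulin, stood at 126, 109 and 143 CPM in cDC2-like cells and had no UMI in any cDC1-like cell, but only 15 of the 90 cDC2-like cells held it. Also on this side were receptors of uptake and adhesion, with the mannose receptor Mrc1 at 207 against 6.29 CPM, the Fc receptor Fcgr3 at 281 against 7.86 CPM and the urokinase receptor Plaur at 290 against 9.44 CPM. Lpl (lipoprotein lipase), Ecm1, Cybb, Pltp, Emb, Cd163, Dab2 and Adam15 completed the 15. Mrc1, Fcgr3, Cybb, Pltp and Lpl each had UMIs in 1 of the 42 cDC1-like cells, in each case a cell of KO HFD. They were higher still in the 884 macrophages, where Mrc1 stood at 498 CPM, Cybb at 366 CPM and Pltp at 760 CPM. So were Itgam (214 CPM), Ecm1 (593 CPM), Dab2 (338 CPM), Cd163 (151 CPM) and Adam15 (121 CPM). Tmem176a, Tmem176b, Plaur, Areg and Emb were lower in macrophages than in cDC2-like cells.

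**Figure D2:**
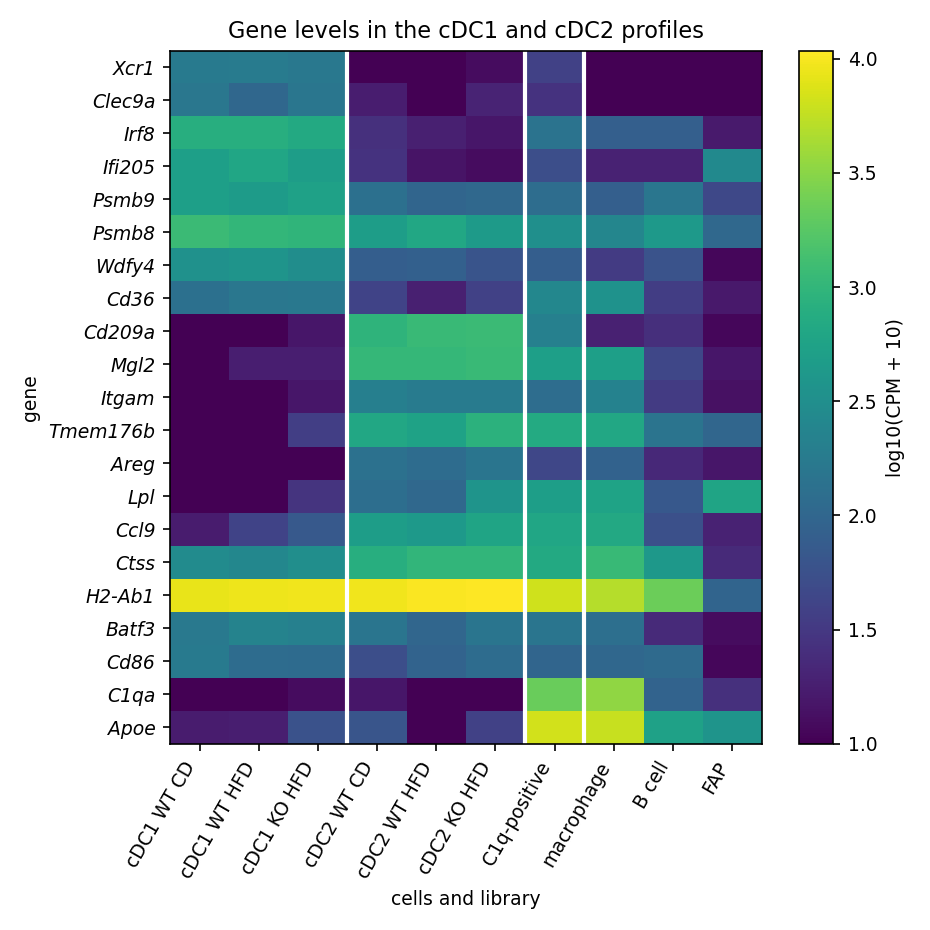
Colour gives log10(CPM + 10) of 21 genes (rows) in cDC1-like and cDC2-like cells of each library, and in C1q-positive cells, macrophages, B cells and FAPs over all libraries (columns). The upper 8 genes are high in the 3 cDC1 columns, the next 8 in the 3 cDC2 columns, H2-Ab1 in both, and C1qa and Apoe in the C1q-positive and macrophage columns. Of these, Cd36 of the upper genes and Itgam, Lpl, Ccl9 and Ctss of the next are higher still in the macrophage column.

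Of 9 genes for MHC class I presentation and cross-presentation at 100 CPM or more, 5 were higher in cDC1-like cells by the rule above (against 7.61% of all genes tested) and none in cDC2-like cells (7.98%). Psmb9, a subunit of the immunoproteasome that cuts peptides for MHC class I, stood at 513, 453 and 539 CPM in the cDC1-like cells of WT CD, WT HFD and KO HFD and at 120, 87.3 and 97.2 CPM in the cDC2-like cells. Its partner Psmb8 (1008 against 502 CPM over all libraries), the peptide transporter subunit Tap2 (105 against 29.9 CPM), Wdfy4 (316 against 65.0 CPM) and the vesicle GTPase Rab43 (165 against 82.1 CPM) were the others. The class I chains themselves were close, with H2-K1 at 698 and 666 CPM and B2m at 830 and 899 CPM.

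Of 9 MHC class II genes tested, 1 was higher in cDC1-like cells, near the 7.61% of all genes, and 2 in cDC2-like cells (7.98%). H2-Ob, a subunit of the H2-O complex that restrains peptide loading, stood at 145 CPM in cDC1-like cells and 50.5 in cDC2-like cells. H2-DMb2 stood at 61.3 and 151 CPM, and Ctss, the protease that trims the invariant chain, at 288 and 892 CPM. Macrophages held more Ctss (1088 CPM) but less H2-Ob and H2-DMb2 (6.65 and 25.3 CPM). The abundant genes lay closer together, with Cd74 (the invariant chain) at 19872 and 27891 CPM and H2-Aa at 7978 and 9455 CPM.

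Of 9 chemokine genes tested, 4 were higher in cDC2-like cells (against 7.98% of all genes tested) and 1 in cDC1-like cells (7.61%). Ccl9, a ligand of CCR1, stood at 477, 419 and 578 CPM in the cDC2-like cells of WT CD, WT HFD and KO HFD, against 7.22, 31.3 and 59.6 CPM in cDC1-like cells. Ccl6 (972 against 193 CPM over all libraries), Ccl17 (171 against 40.9 CPM) and the neutrophil attractant Cxcl2 (920 against 104 CPM) were also higher, although Cxcl2 came from 21 of the 90 cDC2-like cells. Macrophages held more Ccl9 (669 CPM), Ccl6 (1529 CPM) and Cxcl2 (7325 CPM) than the cDC2-like cells, but only 0.302 CPM of Ccl17. Cxcl16, the membrane-bound ligand of CXCR6, was higher in cDC1-like cells, at 143 against 42.8 CPM. The T cell attractants Cxcl9 and Cxcl10 did not pass, at 267 and 330 CPM in cDC1-like cells against 133 and 440 CPM. By library (WT CD, WT HFD and KO HFD), Cxcl10 stood at 36.1, 39.1 and 541 CPM in cDC1-like cells. In cDC2-like cells it stood at 428, 445 and 455 CPM. Over all libraries only 10 of the 42 cDC1-like cells and 42 of the 90 cDC2-like cells held a Cxcl10 UMI. Of the chemokine receptors, Ccr2 was the only one tested, and stood at 200 against 414 CPM. Cxcr3 was below the 100 CPM limit but was found in 19 of 42 cDC1-like cells and 2 of 90 cDC2-like cells.

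Sensing and regulatory genes differed in both directions, and each count here stands against 7.61% of all genes tested that were higher in cDC1-like and 7.98% in cDC2-like cells. Among 4 pattern recognition receptors tested, the scavenger receptor Cd36 (146 against 25.7 CPM) and the lectin receptor Clec12a (145 against 53.0 CPM) were higher in cDC1-like cells and the lipopolysaccharide co-receptor Cd14 (135 against 358 CPM) in cDC2-like cells. Of 8 transcription factors tested, Irf8 was higher in cDC1-like cells, and Zeb2 (33.0 against 234 CPM) and Nfil3 (66.1 against 191 CPM) in cDC2-like cells. None of 16 immediate early and stress genes passed in either direction, nor did either of the 2 cytokine genes tested, Il1b (327 against 581 CPM) and Tgfb1 (135 against 210 CPM), either of the 2 co-stimulation genes, Cd83 (283 against 239 CPM) and Cd86 (120 against 72.7 CPM), or the single interferon response gene tested, Bst2. Il12b, the interleukin-12 subunit that cDC1 are known to supply, was low, at 26.7 CPM in cDC1-like cells (5 cells) and with no UMI in cDC2-like cells. Of 3 lipid-handling genes tested Cd36 was higher in cDC1-like cells and Lpl in cDC2-like cells. Macrophages held more Cd36, Cd14, Zeb2 and Lpl than either profile, at 347, 672, 428 and 571 CPM. They held less Clec12a, Irf8 and Nfil3 than the higher profile.

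Thrombospondin-1 acts on cells through receptors that include CD47 and CD36, and can activate latent TGF-beta, so this list was described on its own. Cd47 stood at 459, 454 and 452 CPM in the members of WT CD, WT HFD and KO HFD, nearly level. Cd36 stood at 73.9, 85.0 and 111 CPM, with 17, 19 and 57 of its UMIs in cDC1-like cells and 34, 17 and 43 in C1q-positive cells, and Tgfb1 at 170, 210 and 168 CPM. None of the 3 genes of the list that reached 100 CPM by diet, or of the 4 by genotype, was 2-fold apart. Over all genes 1.7% were higher and 0.697% lower by diet, and 1.53 and 1.6% by genotype, so these counts are near those shares.

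The 25 C1q-positive cells went against the label. They held between 16 and 206 UMIs of C1qa, C1qb and C1qc with a median of 99, whereas no other member held more than 7. C1qa stood at 2157 CPM in them and 3350 in macrophages, and the lipid carrier Apoe at 6793 and 6034 CPM. Cd209a, which admitted most of them, stood at 202 CPM, and Flt3 had a UMI in 12% of them. The macrophages are barcodes that the rule left out, so these levels cannot be set against theirs. They numbered 8, 9 and 8 in WT CD, WT HFD and KO HFD and are called C1q-positive cells here. Whether each is 1 cell with both programmes or a mixture of 2 cells was not tested. Scrublet called none of them.

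Migratory and plasmacytoid cells were rare. Ccr7, the lymph node homing receptor, stood at 18.5, 0 and 61.2 CPM in the members of WT CD, WT HFD and KO HFD, from 3, 0 and 3 cells. The 8 migratory markers summed to 39.1, 6.71 and 101 CPM. In KO HFD 1 cell held 80.6% of the Ccr7 UMIs and 75 UMIs of the 8 markers. Of these, 5 were detected in WT CD, 2 in WT HFD (led by Ccl22 at 4.47 CPM) and 7 in KO HFD. Migratory-like cells numbered 3, 0 and 2, and 0 of 38 in WT HFD allowed a share of up to 9.25%, so a difference from the other libraries was not detectable. The 2 pDC-like cells were both in WT CD, where the 6 plasmacytoid markers summed to 176 CPM against 6.71 in WT HFD and 86.8 in KO HFD.

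The plasmacytoid sum of KO HFD came almost wholly from Ly6d in 1 cell with 37997 UMIs, 16369 of them Igkc, 3218 Ighm and 705 Jchain, and with no Siglech UMI. That immunoglobulin-rich cell, which passed the rule with 1 UMI of Flt3 and 1 of Xcr1, held 98.1% of the Ighm and 99.5% of the Ly6c2 UMIs of the KO HFD members. A cDC2-like cell of WT CD with 22910 UMIs held 187 of Dcn, the FAP proteoglycan decorin, which was 94.9% of the Dcn UMIs of the WT CD members, beside 25 UMIs of Cd209a and 173 of H2-Ab1.

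Of the markers of other cell types, those of macrophages and monocytes were the most abundant, apart from the Ighm of the immunoglobulin-rich cell in KO HFD. The rule left out barcodes with Cd79a, Pdgfra or Cd3e, which in part fixes this order for B cell, FAP and T cell markers. The 10 macrophage markers summed to 1161, 2406 and 1151 CPM in WT CD, WT HFD and KO HFD, led by C1qb at 408, 738 and 411 CPM. The 7 monocyte markers summed to 548, 595 and 663 CPM, led by Ccr2 at 357, 351 and 311 CPM, with Chil3 at 0 throughout. B cell markers summed to 73.9, 80.5 and 3241 CPM, nearly all Ighm and in KO HFD nearly all from that cell, with Ms4a1 and Pax5 at 0 in each library. FAP markers summed to 240, 6.71 and 26.6 CPM, of which Dcn made up 214, 4.47 and 19.7 CPM, in WT CD nearly all from the Dcn-rich cell. The T or NK cell markers came to 12, 2.24 and 0 CPM, those of neutrophils to 5.44, 0 and 0.986, of mast cells to 0, 2.24 and 0, and of endothelial cells to 28.3, 20.1 and 5.92.

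The members, C1q-positive cells included, made up a smaller share of barcodes in WT HFD than in WT CD. The share fell by 0.615 percentage points (Newcombe 95% interval −1.13 to −0.109). The cDC2-like cells, 41 in WT CD and 19 in WT HFD, went from 0.992 to 0.503% of barcodes, a difference of −0.489 points (−0.884 to −0.106). The cDC1-like cells numbered 10 in each, and their share differed by 0.0230 points (−0.213 to 0.271). The difference between the profiles was not tested, and as a share of members the cDC2-like cells differed by −11.2 points (−29.8 to 8.11), which includes no difference. The share counts against all other barcodes, so fewer dendritic cells and more of other cells cannot be told apart.

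In KO HFD the share of members was 0.458 points above that of WT HFD, with an interval from −0.0302 to 0.943 that includes no difference. The 22 cDC1-like cells made up 0.504% of barcodes against 0.265% in WT HFD (difference 0.239, −0.0416 to 0.523). The 30 cDC2-like cells made up 0.687% (difference 0.183, −0.165 to 0.527). As a share of members, cDC1-like cells were 14.9% (7.40 to 25.7) in WT CD, 26.3% (13.4 to 43.1) in WT HFD and 34.4% (22.9 to 47.3) in KO HFD, with intervals that overlap throughout. When the rule was applied after thinning to 5000 UMIs, these became 4.26, 12 and 25%.

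**Figure D3:**
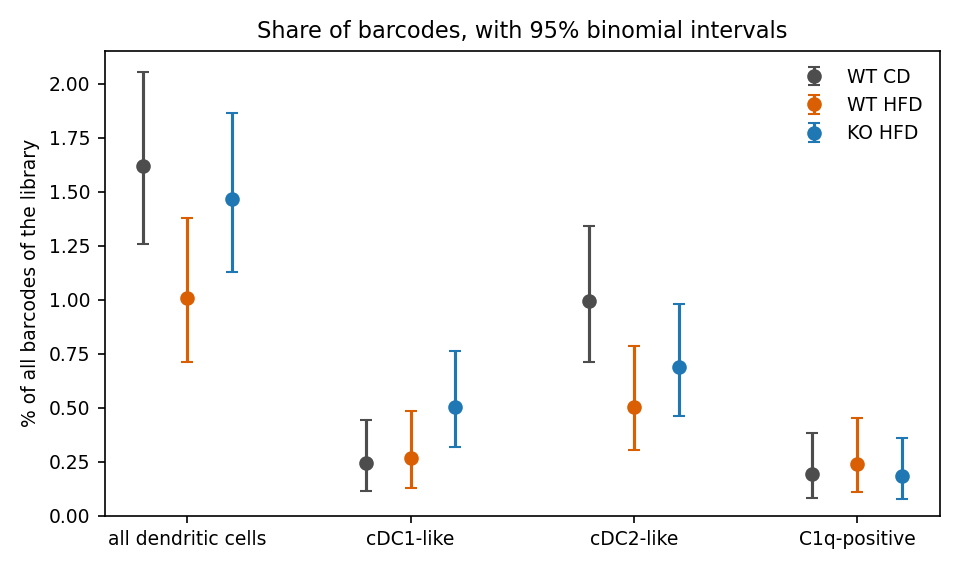
Points give the dendritic cells and their 3 main profiles as a percent of all barcodes of a library, and bars give exact 95% binomial intervals for 1 library per group. WT HFD is lowest for all dendritic cells (1.01%) and for cDC2-like cells (0.503%), and KO HFD has the most cDC1-like cells (0.504%), with overlapping intervals.

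Cells with cell cycle transcripts made up a larger share of the cDC1-like than of the cDC2-like cells, and most of those cDC1-like cells were in KO HFD. With a threshold of 10 UMIs over Mki67, Top2a, Birc5, Cdk1, Pclaf, Ube2c and Tyms, set after the values were seen, 13 of 42 cDC1-like cells passed (31.0%, 17.6 to 47.1) and 7 of 90 cDC2-like cells (7.78%, 3.18 to 15.4). By library the cDC1-like counts were 3 of 10 in WT CD, 1 of 10 in WT HFD and 9 of 22 in KO HFD, and the cDC2-like counts 5 of 41, 1 of 19 and 1 of 30. Small sets also held some, with 2 of 5 migratory-like and 2 of 4 unresolved cells. Of 8 cell cycle genes tested, Birc5, Hmgb2, Pclaf, Top2a and Ube2c were higher in cDC1-like cells (against 7.61% of all genes tested) and none in cDC2-like cells (7.98%). Hmgb2, a chromatin protein, stood at 1126, 1157 and 2036 CPM in cDC1-like cells against 614, 314 and 253 CPM. The members that passed were deeper, at a median of 19554 UMIs against 11858 in those that did not, and the part of depth was not tested.

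**Figure D4:**
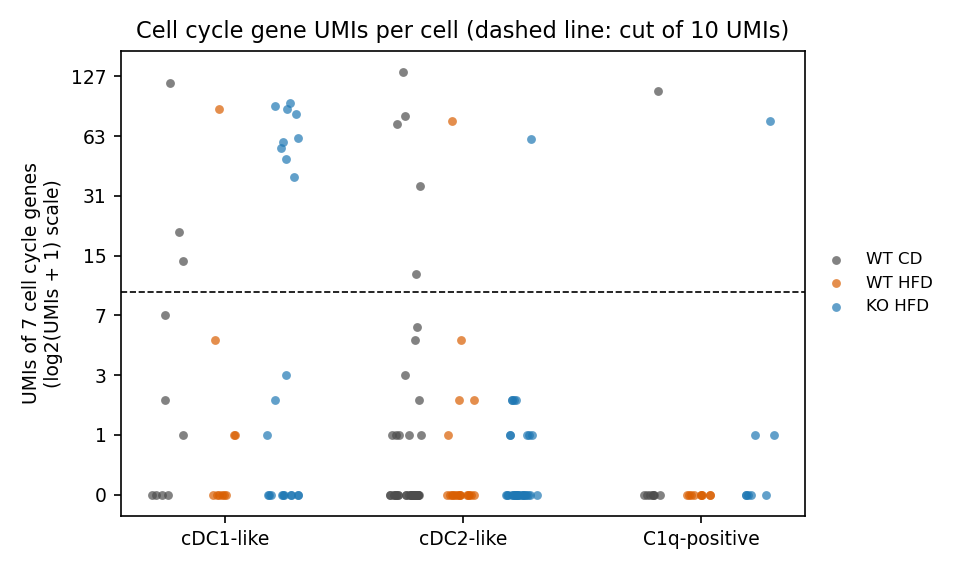
Each point is 1 cell, placed by its UMIs of 7 cell cycle genes on a log2(UMIs + 1) scale, in the cDC1-like, cDC2-like and C1q-positive cells of each library, with the threshold of 10 UMIs as a dashed line. Of the cDC1-like cells of KO HFD, 9 of 22 lie above it, against 1 of 10 in WT HFD.

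The first comparison, WT HFD against WT CD, asks how diet-induced obesity bears on the cells. Among 1291 genes of at least 100 CPM in 1 of the 2 libraries, 22 (1.7%) were at least 2-fold higher in the WT HFD members and 9 (0.697%) at least 2-fold lower. The median log2 ratio over all of them was 0.05, and 95% lay between −0.64 and 0.80. With 1 library a side there is no test, and a gene past 2-fold is called higher or lower only in that sense. None of 10 MHC class II genes and none of 8 MHC class I genes passed, counts near the share over all genes, and the class II genes (among them H2-Ab1, used by the rule) summed to 52140 and 52506 CPM.

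Most of the higher genes came from the C1q-positive cells, which held at least 50% of the WT HFD UMIs for 13 of the 22. These cells were 9 of the 38 WT HFD members and held 90024 of their 447184 UMIs. The matching share over all tested genes was not computed. Apoe stood at 616 CPM in WT CD members and 2798 in WT HFD members (log2 ratio 2.18, exact 95% interval 2.04 to 2.33), and 1250 of its 1251 WT HFD UMIs lay in C1q-positive cells. The scavenger lectin gene Cd209f went from 0 to 148 CPM, at least 5.50 on the log2 scale, and the folate receptor gene Folr2 from 8.70 to 105 CPM (3.59, 2.50 to 4.89). The C1q-positive cells held all 66 Cd209f UMIs of WT HFD.

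The same held for other genes of resident macrophages. Selenop, a selenium carrier, went from 128 to 449 CPM (1.81, 1.47 to 2.15), F13a1, the coagulation factor XIII A chain, from 43.5 to 165 CPM (1.93, 1.35 to 2.52), and the monocyte attractant Ccl12 from 9.79 to 127 CPM (3.70, 2.68 to 4.90). Ccl8, a related attractant, went from 2.17 to 912 CPM (8.71, 6.85 to 11.76), but 84.8% of its WT HFD UMIs were in 1 C1q-positive cell. The cDC2-like cells did not show the rises of Apoe, F13a1 and Selenop. In them Apoe went from 52.8 to 0 CPM, F13a1 from 23.7 to 4.36 CPM (−2.44, −7.85 to 0.30) and Selenop from 92.9 to 65.4 CPM (−0.51, −1.44 to 0.35), the last 2 with intervals that include no difference. AA467197, which encodes the small mitochondrial protein NMES1, went from 19.6 to 239 CPM (3.61, 2.88 to 4.42), with 75.7% of the WT HFD UMIs in 1 cell.

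The lower genes included stress and cell cycle genes. Hspa1b, which encodes an inducible HSP70 chaperone, stood at 407 CPM in WT CD, 130 in WT HFD and 270 in KO HFD (WT HFD against WT CD −1.65, −2.07 to −1.25), and its twin Hspa1a at 512, 210 and 428 CPM (−1.28, −1.62 to −0.96). Both were lowest in WT HFD, also in the cDC2-like cells (388, 148 and 187 CPM for Hspa1b). The other barcodes of the same libraries had the same order, with 319, 181 and 240 CPM of Hspa1b and 430, 266 and 355 CPM of Hspa1a. Reads of this near-identical pair may be split between its members, so the division between them is uncertain. The other 14 immediate early and stress genes tested did not pass, and the list's median log2 ratio was 0.27. Only these 2 of 16 were thus lower, against 0.697% of all genes, and none was higher (1.7%).

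Mki67, a marker of cycling cells, stood at 128, 44.7 and 138 CPM in WT CD, WT HFD and KO HFD (WT HFD against WT CD −1.52, −2.28 to −0.83), and Ube2c at 182, 82.7 and 195 CPM (−1.13, −1.69 to −0.61). Of 8 cell cycle genes 2 were lower (0.697% of all genes) and none higher (1.7%), with a median log2 ratio of −0.62. Their UMIs came from few cells, with 20 Mki67 UMIs in 5 cells of WT HFD. Ecm1, a secreted matrix protein gene, stood at 251, 110 and 223 CPM (−1.20, −1.67 to −0.75), and Upb1, a pyrimidine-degrading enzyme gene, at 117, 44.7 and 80.9 CPM (−1.39, −2.16 to −0.70). Dcn (214 to 4.47 CPM, −5.58) and the protease inhibitor Slpi (145 to 0 CPM) rested on 1 WT CD cell each, which held 94.9 and 93.2% of their WT CD UMIs.

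**Figure D5:**
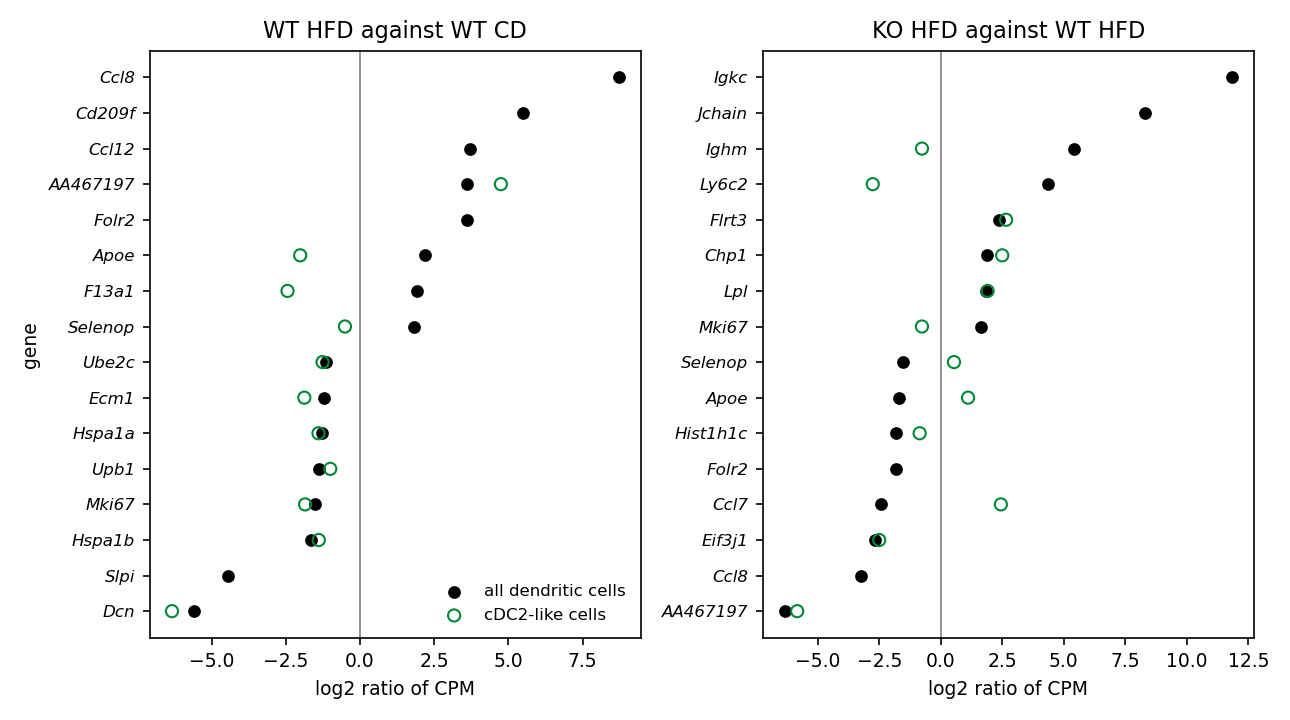
Log2 ratios of CPM (x axis) for the 8 most raised and 8 most lowered genes of each comparison (y axis), in all dendritic cells (black) and in cDC2-like cells alone (open circles, where the counts allow a value), with a ratio against 0 counts drawn at its bound. In the diet panel AA467197 is raised in both sets of cells while Apoe, F13a1 and Selenop lie below 0 in cDC2-like cells, and in the genotype panel Flrt3, Chp1 and Lpl are raised in both.

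Within the cDC2-like cells alone, 26 of 1330 genes (1.95%) were at least 2-fold higher in WT HFD and 29 (2.18%) lower, and 95% of all tested genes lay between −0.96 and 0.94 on the log2 scale, so a 2-fold difference was about the spread of the genes. Nlrp3, the inflammasome sensor, stood at 29.1 CPM in WT CD, 140 in WT HFD and 97.2 in KO HFD (WT HFD against WT CD 2.26, 1.35 to 3.23), and was found in 11 of 41, 13 of 19 and 12 of 30 cDC2-like cells. The other barcodes had the same order at lower levels, with 9.43, 25.9 and 16.6 CPM. It was the pattern recognition receptor that passed in the members as a whole, 1 of 2 tested, against 1.7% of all genes higher there. Klrd1 stood at 109, 327 and 125 CPM (1.58, 1.07 to 2.10), the adaptor gene Samsn1 at 61.9, 192 and 194 CPM (1.63, 0.95 to 2.32) and the adaptor gene Stap1 at 41.9, 118 and 76.8 CPM (1.49, 0.63 to 2.36). These 4 genes were spread over 9 or more WT HFD cells each. Among the lower genes, the keratin gene Krt80 stood at 106, 21.8 and 76.8 CPM (−2.28, −3.95 to −0.97) in 24, 3 and 13 cells, and Ecm1 at 288, 78.5 and 333 CPM (−1.87, −2.67 to −1.17).

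Ccl7, a monocyte attractant, moved in opposite directions in the 2 kinds of cell. It stood at 117 CPM in the cDC2-like cells of WT CD and 17.5 in those of WT HFD (−2.74, −4.66 to −1.31), but at 289 and 1377 CPM in the C1q-positive cells, so that the members as a whole went from 123 to 288 CPM. The difference between the 2 directions was not tested.

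The second comparison, KO HFD against WT HFD, asks how loss of thrombospondin-1 bears on the cells under the same diet, and shares the WT HFD library with the first. Among 1311 genes, 20 (1.53%) were at least 2-fold higher in KO HFD members and 21 (1.6%) at least 2-fold lower, with a median log2 ratio of −0.03 and 95% of genes between −0.75 and 0.73. The MHC class II genes again did not pass (0 of 10, with a summed level of 51737 CPM in KO HFD), nor did the MHC class I genes (0 of 8) or the co-stimulation genes (0 of 2). Of the 20 higher genes, 7 were also called in the cDC2-like cells alone (2.79% of all genes tested there), namely Mndal, Chp1, Flrt3, Sdc4, Ecm1, Nr4a3 and Lpl. The cDC2-like cells are part of the members, so the 2 calls share UMIs and are not independent. Of the 21 lower genes, 14 had at least 50% of their WT HFD UMIs in C1q-positive cells, a share that was not computed over all tested genes.

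Lpl, the enzyme that releases fatty acids from lipoproteins, stood at 84.8, 85.0 and 305 CPM in the members of WT CD, WT HFD and KO HFD (KO HFD against WT HFD 1.84, 1.35 to 2.37). Of the 309 KO HFD UMIs, 162 lay in the 8 C1q-positive cells and 140 in cDC2-like cells. KO HFD was also highest in the cDC2-like cells, at 117, 96.0 and 358 CPM (1.90, 1.25 to 2.62), in the C1q-positive cells, at 109, 178 and 967 CPM, and, by less, in the other barcodes, at 365, 485 and 537 CPM. The Lpl UMIs lay in 18, 6 and 16 members, and the cDC1-like cells held next to none (0, 0 and 18.9 CPM). Lpl was the only higher gene among 4 lipid-handling genes tested (1.53% of all genes), and Apoe the only lower one (1.6%; 2798 to 851 CPM, −1.72, −1.84 to −1.59), the latter again in C1q-positive cells.

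Flrt3, which encodes a cell adhesion protein, stood at 35.9, 20.1 and 104 CPM in the members of WT CD, WT HFD and KO HFD (KO HFD against WT HFD 2.36, 1.38 to 3.53), in 10, 5 and 21 cells. Mki67 was higher (1.63, 0.94 to 2.38), and 3 of 8 cell cycle genes passed upward (1.53% of all genes) and none downward (1.6%), with a median log2 ratio of 0.91. Ube2c turned to −0.11 when the rule was applied after thinning to 5000 UMIs, and Birc5 to −0.39 in cDC2-like cells. In the cDC1-like cells Mki67 stood at 93.8, 93.8 and 284 CPM, and in the cDC2-like cells at 126, 34.9 and 20.5 CPM, the last 2 from 8 UMIs each. Hspa1a (1.03, 0.70 to 1.36) and Hspa1b (1.06, 0.65 to 1.49) were the 2 higher genes of the 16 stress genes (1.53% of all genes). Their sign was opposite to that in the diet comparison, with which they share the WT HFD values.

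The 4 largest ratios, of Igkc (4.47 to 16148 CPM, 11.82), Jchain (2.24 to 696 CPM, 8.28), Ighm (76.0 to 3236 CPM, 5.41) and Ly6c2 (8.94 to 183 CPM, 4.36), rested on the immunoglobulin-rich cell. Without it and the Dcn-rich cell of WT CD, an alternative added after the data had been seen, 17 genes were higher and 18 lower, and Ighm and Ly6c2 changed sign (−0.24 and −3.13). Among the chemokines Cxcl9 was higher (78.3 to 181 CPM, 1.21, 0.68 to 1.77), and Ccl2 (754 to 334 CPM, −1.17), Ccl3 (123 to 47.3 CPM, −1.38) and Ccl7 (288 to 53.3 CPM, −2.44) were lower. These were 1 higher and 3 lower of 11 tested, against 1.53 and 1.6% of all genes. In the cDC2-like cells alone Ccl2 stood at 323 and 358 CPM, Ccl7 at 17.5 and 94.7 CPM and Ccl3 at 74.2 and 35.8 CPM, so of the 3 only Ccl3 had a lower value there. Of 6 macrophage markers tested, 4 were lower in KO HFD than in WT HFD (1.6% of all genes) and 3 higher in WT HFD than in WT CD (1.7%), and C1qa, C1qb and C1qc among them lie almost wholly in the C1q-positive cells.

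The cDC2-like cells of KO HFD had 37 of 1328 genes (2.79%) at least 2-fold higher than those of WT HFD and 38 (2.86%) lower, with 95% of genes between −1.03 and 1.03. Gpr65, an acid-sensing receptor gene, stood at 51.0, 0 and 105 CPM in WT CD, WT HFD and KO HFD, in 10, 0 and 13 cells, a log2 ratio of at least 3.0 to WT HFD. Sdc4, which encodes the proteoglycan syndecan-4, stood at 85.6, 39.3 and 161 CPM (2.04, 1.02 to 3.23) and Errfi1, an inhibitor of epidermal growth factor receptors, at 16.4, 21.8 and 105 CPM (2.27, 0.93 to 3.96). Retnla, an alternative activation gene, stood at 2870, 881 and 3889 CPM, but in WT HFD 99.5% of its UMIs were in 1 of 2 cells. Of the lower genes, Fmnl1, an actin-nucleating formin gene, stood at 74.7, 122 and 35.8 CPM (−1.77, −2.81 to −0.80) in 22, 16 and 12 cells, and Stmn1, a microtubule regulator gene, at 246, 262 and 40.9 CPM (−2.68, −3.57 to −1.86), with 56.7% of the WT HFD UMIs in 1 cell.

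Thbs1 itself was scarce in the members, C1q-positive cells included, at 31, 4 and 17 UMIs in WT CD, WT HFD and KO HFD. These came to 33.7 CPM (Poisson 95% interval 22.9 to 47.8), 8.94 (2.44 to 22.9) and 16.8 (9.77 to 26.8). It stood at 77.8 CPM in the C1q-positive cells, against 6.29 in cDC1-like and 14.5 in cDC2-like cells. It was not lost from the library labelled KO HFD, where FAPs held 219 CPM against 206 in WT CD and 245 in WT HFD, and macrophages 83.2 CPM against 96.8 and 380. The chemistry counts 3′ ends, and the sources used here do not say whether the counted end lies in the deleted part, so this count does not check the genotype.

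Of the 41 genes that differed 2-fold between KO HFD and WT HFD, 3 lay near Thbs1 on chromosome 2 (chr2:118111876-118127133, + strand). Within 10 Mb of it, 3 of 13 tested genes (23.1%) differed 2-fold, against 2.93% of those elsewhere. For WT HFD against WT CD, where both libraries carry the same allele, the shares were 2 of 12 (16.7%, Gatm and AA467197) and 2.27%. Chp1 (chr2:119547697-119587027), which encodes a calcineurin-like calcium-binding protein, stood at 42.4, 29.1 and 107 CPM in WT CD, WT HFD and KO HFD (KO HFD against WT HFD 1.87, 1.04 to 2.83) and was found in 29, 10 and 45 members. It was highest in KO HFD in each profile, at 36.1, 39.1 and 89.3 CPM in cDC1-like and 41.9, 21.8 and 123 CPM in cDC2-like cells. KO HFD was also highest in macrophages, at 27.5, 37.8 and 49.1 CPM, and B cells, at 19.7, 18.7 and 32.7 CPM, but not in FAPs, at 53.3, 54.9 and 49.3 CPM.

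Eif3j1 (chr2:122028546-122056598), which encodes a translation initiation factor subunit, stood at 109, 141 and 21.7 CPM (KO HFD against WT HFD −2.70, −3.47 to −1.98). The drop was shared by the other barcodes, at 97.4, 111 and 27.1 CPM. Its paralog Eif3j2 moved the other way, at 3.26, 4.47 and 55.2 CPM in members and 7.94, 8.95 and 69.4 CPM in other barcodes. Reads may be shared between the paralogs, so both values are uncertain. AA467197 (chr2:122636986-122641191) had no UMI in any KO HFD member, a log2 ratio of at most −6.34 to WT HFD, where most of its UMIs were in 1 cell. It was low but present in the other barcodes of each library, at 4.79, 6.76 and 3.02 CPM in WT CD, WT HFD and KO HFD. The name of the KO line carries a second strain, 129S2, and the part of sequence flanking the deleted gene in these 3 differences was not tested.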

How the data were processed

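Mononuclear cells of the diaphragm were measured in 3 libraries of the 10x Genomics 3′ chemistry (v3.1), 1 per group. The authors deposited raw UMI counts of 32285 genes, made with Cell Ranger 6.1.1 on mm10 (GRCm38) per the submitters' processing notes, for the barcodes called as cells, without normalization. All 12275 barcodes were kept.

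Each gene's UMIs were added up over the members of each library and scaled to 1000000 (CPM). A gene was tested where either library reached 100 CPM, and called at a 2-fold difference. Ratios carry exact conditional, levels exact Poisson, shares Clopper-Pearson and differences of shares Newcombe intervals, at 95%. A count of 0 was set to a floor of 3 counts per library, which gives a bound. Coordinates were those of GENCODE M21 on GRCm38.

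Named genes were those of 26 lists (229 of 231 members in the files; Clec6a and Clec7a were not analysed here, and some genes are not reported here), the 8 largest rises and falls of each comparison, the 15 genes leading the members, and Thbs1; the leading genes of the cDC1-like and cDC2-like cells were added after their values were seen, as were the largest changes within cDC2-like cells. The members and lists were chosen with earlier results of these data known. Scrublet (expected rate 0.06) called 1.26, 1.09 and 1.33% of barcodes as doublets, which were kept. The 12 alternatives, given below, included edgeR TMM scaling. The fold calling was tested on simulated data. Tools were Python 3.11.15, numpy 2.4.6, scipy 1.17.1, pandas 2.3.3, scanpy 1.11.5, matplotlib 3.10.9, R 4.3.3 and edgeR 4.0.16.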

Additional observations from a re-analysis of the deposited data

How the results depend on the processing

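No paired analysis was possible because each group is 1 library, and no replicate could be left out. Of the 12 alternatives, 6 changed the rule or dropped low-quality, doublet or C1q-positive cells, and in these 6 the share of members stayed lowest in WT HFD. Among cDC1-like cells alone it was lowest in WT CD (0.242%, against 0.265% in WT HFD). Members numbered 57, 29 and 53 in WT CD, WT HFD and KO HFD with a marker sum of at least 3, and 59, 29 and 56 without C1q-positive cells. Of the values of single genes, 1747 stayed, 417 moved and 29 reversed. Of the shares and counts, 103 stayed and 22 moved. The cDC1-like members alone, and the members without the cells of 100 or more Ighm or Dcn UMIs, were alternatives chosen after seeing the data. The cause of a change was not tested beyond what each setting removes.

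Applying the rule after thinning each cell to 5000 UMIs left 36 members in KO HFD, 1.06% on a base smaller than its 4369 barcodes. The same step left cDC1-like cells at 4.26% of members in WT CD and 12% in WT HFD. For WT HFD against WT CD, the 22 higher genes became 10 without C1q-positive cells, 40 with each cell weighted alike, 52 at a minimum of 50 CPM and 106 in cDC1-like cells alone. The 9 lower genes became 18 with a marker sum of at least 3, 22 after thinning, 16 without C1q-positive cells, 39 at 50 CPM, 29 in cDC2-like and 68 in cDC1-like cells alone. For KO HFD against WT HFD, the 20 higher genes became 49 at 50 CPM, 37 in cDC2-like and 70 in cDC1-like cells. The 21 lower genes became 35 after thinning, 11 without C1q-positive cells, 37 with cells weighted alike, 47 at 50 CPM, 38 in cDC2-like and 52 in cDC1-like cells.

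Of the 29 reversals, 12 came in cDC2-like cells alone, 7 without C1q-positive cells, 4 after thinning and 2 in each of 3 other settings. For WT HFD against WT CD, the log2 ratios without these cells and in cDC2-like cells alone were −3.81 and −2.01 for Apoe, −2.78 and −2.74 for Ccl7, −2.55 and −2.44 for F13a1, and −0.49 and −0.51 for Selenop. Ccl7 was at −3.47 in cDC1-like cells. For KO HFD against WT HFD the same 2 settings gave 3.61 and 1.10 for Apoe, 1.64 and 2.44 for Ccl7, and 0.077 and 0.53 for Selenop. The cDC2-like cells of WT HFD held no Apoe UMI, so −2.01 is an upper bound and 1.10 a lower bound. Apoe was at 2.64 in cDC1-like cells. In cDC2-like cells alone Birc5 was at −0.39, Mki67 at −0.77 and Ccl2 at 0.15. After thinning Ccl12 was at 0.31 and Ube2c at −0.11. Of the settings that drop the immunoglobulin-rich cell, 4 reversed Ighm and Ly6c2, to −0.021 and −3.16 with a marker sum of at least 3, −0.30 and −1.04 after thinning, −0.77 and −2.77 in cDC2-like cells, and −0.24 and −3.13 without the cells of 100 or more Ighm or Dcn UMIs, whereas in cDC1-like cells Ighm stayed higher in KO HFD (0.76). Depth was small in single profiles, with 127947 UMIs from 10 cDC1-like cells and 90024 from 9 C1q-positive cells in WT HFD.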

Other observations

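Outside the members, 8 barcodes without Cd79a held at least 10 UMIs of H2-Ab1 and at least 5 of the migratory markers, 4 of them with a Ccr7 UMI. They fell short of 2 UMIs of Flt3, Xcr1 and Cd209a or held Pdgfra or Cd3e, and are not among the 169. A single barcode outside the members held 10 or more UMIs of the plasmacytoid markers with a Siglech UMI. Among the 74 barcodes 1 UMI short of the marker sum, 32 held 10 or more C1q UMIs, as did 10 of the 30 members at a sum of exactly 2.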
